A study of Mus musculus with 2 samples.

Results

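Galectins are small proteins that bind β-galactoside sugars on glycoproteins, and annexins are cytosolic proteins that bind acidic phospholipids of membranes when calcium rises. The levels of 3 galectin genes (Lgals1, Lgals3 and Lgals9) and 7 annexin genes (Anxa1 to Anxa7) were read by gene symbol from bulk RNA-seq of Tregs, and all 10 symbols were found among the 24346 listed in each library. GFP+CD4+ cells were sorted from FDG mice of the Foxp3-DTR-GFP genotype, in which the endogenous Foxp3 locus drives GFP, so that the sort selects cells by Foxp3 expression. Mice aged 10 to 16 weeks were given 50 μg of BLM (bleomycin) into the trachea to induce lung injury and fibrosis, and cells were taken on day 15 from spleen and from lung. Both groups thus shared genotype, treatment and day and differed in tissue. Lung cells were freed with enzymes and cleaned on Percoll, while for other tissues the authors refer to earlier work. An effect of cell preparation therefore cannot be told apart from tissue. Each group was 1 library made from the pooled cells of 3 mice, so the differences stand without replicates and no p-value was computed. Untreated mice were not analysed here, and the comparison asks how Tregs of the injured lung differ from splenic Tregs after the same treatment.

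Galectins lack a signal for classical secretion but act both inside the cell and, once outside, on glycans of neighbouring cells. Galectin-1 and galectin-9 are known for regulating T cell survival and are both made by Tregs, whereas galectin-3, also called Mac-2, is abundant in macrophages and is induced in activated T cells. Among annexins, annexin A1 is known for limiting inflammation through formyl peptide receptors, annexin A2 works in a complex with S100a10 at the plasma membrane, annexin A5 binds phosphatidylserine, and annexin A6 is an unusually large annexin with a doubled core. Several annexins seal damaged plasma membrane.

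The values are FPKM, which divide a gene's fragments by its length and by a measure of library size. Levels of different genes can thus be compared within a library. The estimated reads behind them summed to 9864260 in spleen and 12882800 in lung, and the members rested on about 37.9 (Anxa3 in spleen) to 6843 reads (Anxa2 in lung). The sorted cells carried their defining markers, since all 10 genes of a T cell list lay between 91.9 and 1103 FPKM in both libraries, with none over 2-fold apart, and all 10 genes of a Treg list were at 10.8 FPKM or more. Foxp3 measured 18.7 FPKM in spleen and 41.8 in lung. Unlike the T cell list, the Treg list was not even, with 5 genes over 2-fold higher in lung and 1 over 2-fold lower. Of the 12094 symbols that reached 1 FPKM in at least 1 library, 17.8% were over 2-fold higher and 15.5% over 2-fold lower. Genes of other cells were present too, most of all Lyz2 of a macrophage list (376 FPKM in spleen and 24947 in lung). Their values stand beside the results below. In bulk samples, fewer cells of a type and less RNA per cell cannot be told apart.

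The galectin genes differed in how far their levels in the lung library lay from those in the spleen library. Lgals3, which encodes the single chimera-type galectin, measured 22.6 FPKM in spleen and 453 in lung, a 20.1-fold higher level. Lgals1, which encodes a small galectin with a single sugar-binding domain, measured 248 FPKM in spleen and 929 in lung, 3.75-fold higher. Lgals9, which encodes a tandem galectin with a pair of sugar-binding domains, measured 285 FPKM in spleen and 328 in lung, 1.15-fold higher. The lung value thus exceeded the splenic value widely for Lgals3, moderately for Lgals1 and slightly for Lgals9, whose sign turned after rescaling of both libraries to TPM (a log2 ratio of lung to spleen of -0.23 in place of 0.20), which moves all genes by the same amount. Lgals3 had a log2 ratio of 4.33 with a 95% interval of 4.15 to 4.51 from counting of reads alone. The interval of Lgals1 was 1.83 to 1.99 around 1.91, and that of Lgals9 was 0.14 to 0.26. These intervals are exact binomial intervals on estimated reads, and they leave out the variation between mice and any amplification of single molecules.

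Among the annexins, Anxa3 and Anxa1 had the highest folds. Anxa3, a gene known from neutrophils and other myeloid cells, measured 2.64 FPKM in spleen and 69.3 in lung, 26.3-fold higher. Anxa1, the glucocorticoid-induced lipocortin, measured 14.5 FPKM in spleen and 210 in lung, 14.5-fold higher. These 2 genes were among the lowest annexins of the splenic library, so that few reads stood behind their splenic values, about 37.9 for Anxa3 and 220 for Anxa1. Anxa4, an annexin best known from epithelium, measured 12.2 FPKM in spleen and 82.9 in lung, 6.80-fold higher. Anxa2 measured 89.4 FPKM in spleen and 469 in lung, 5.25-fold higher. Anxa5 measured 105 FPKM in spleen and 241 in lung, 2.30-fold higher. The levels of the last 2 members lay close together in the tissues. Anxa7, or synexin, measured 22.5 FPKM in spleen and 35.5 in lung, 1.58-fold higher, and Anxa6 measured 214 FPKM in spleen and 228 in lung, 1.07-fold higher. Anxa6 had a log2 ratio of 0.09 as deposited, close to the median of 0.03 over all symbols, so its sign follows the scaling chosen (-0.34 after rescaling to TPM, where that median was -0.40, and -0.08 with equal upper quartiles, where it was -0.15).

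**Figure D1:**
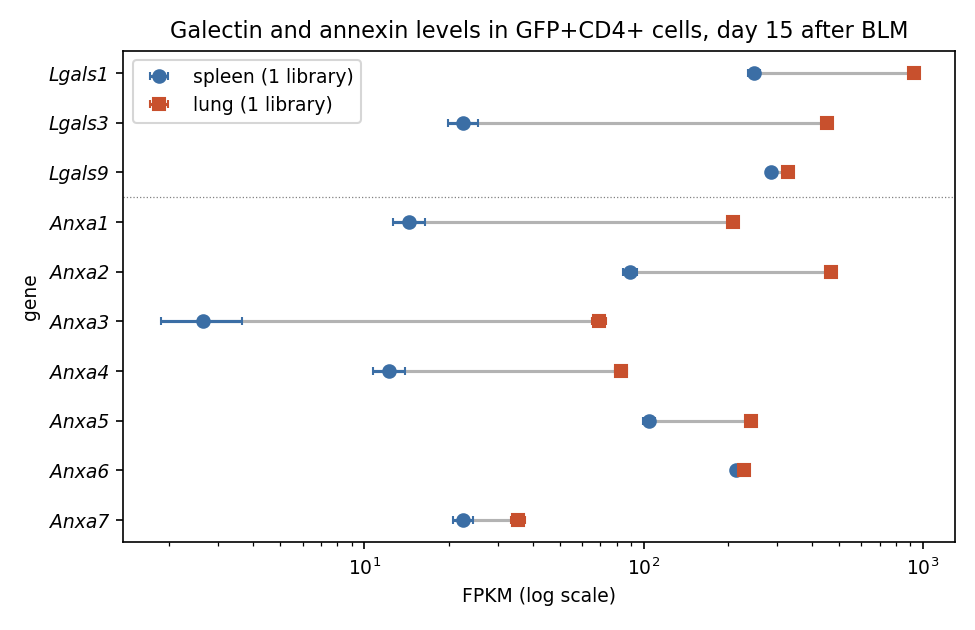
Level of each galectin and annexin gene in the spleen library (circles) and the lung library (squares), in FPKM on a log scale, with 1 library per tissue. Bars are 95% Poisson intervals from estimated reads and cover counting error only. The distance between circle and square is widest for Anxa3 (2.64 and 69.3 FPKM) and Lgals3 (22.6 and 453) and narrowest for Anxa6 (214 and 228).

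Read against all genes, 7 of the 10 members were over 2-fold higher in lung, against 17.8% of the 12094 symbols that reached 1 FPKM in at least 1 library. None was over 2-fold lower, against 15.5%. All 10 members passed this filter on low values, and each did so in both libraries. At a stricter fold, 5 members were over 5-fold higher (Lgals3, Anxa1, Anxa2, Anxa3 and Anxa4), against 8.93% of symbols, and 3 were over 10-fold higher (Lgals3, Anxa1 and Anxa3), against 6.14%. Over 20-fold, the threshold used in the study, lay 2 members, Anxa3 and Lgals3, against 3.27% of symbols. Lgals3, at 20.1-fold, was just inside that threshold, and Anxa1, at 14.5-fold, was the nearest member outside it. The counting intervals of Lgals3 and of Anxa3 (a log2 ratio of 4.25 to 5.22) both span the threshold. Among the 7279 symbols that reached 10 FPKM in at least 1 library, as all 10 members did, 11.6% were over 2-fold higher in lung, 9.15% over 2-fold lower and 2.02% over 20-fold higher. The median log2 ratio was 1.91 over the 3 galectins and 2.39 over the 7 annexins, against 0.03 over all 12094 symbols, of which the middle 90% lay between -3.01 and 3.72. Lgals3, Anxa1 and Anxa3 lay above that range and the other 7 members inside it. Over the symbols that reached 10 FPKM, the middle 90% lay between -1.32 and 2.09, and Anxa2 and Anxa4 lay above that range as well. The members were chosen with earlier results of these data known, so these counts describe them and do not show that the families differ from other genes.

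**Figure D2:**
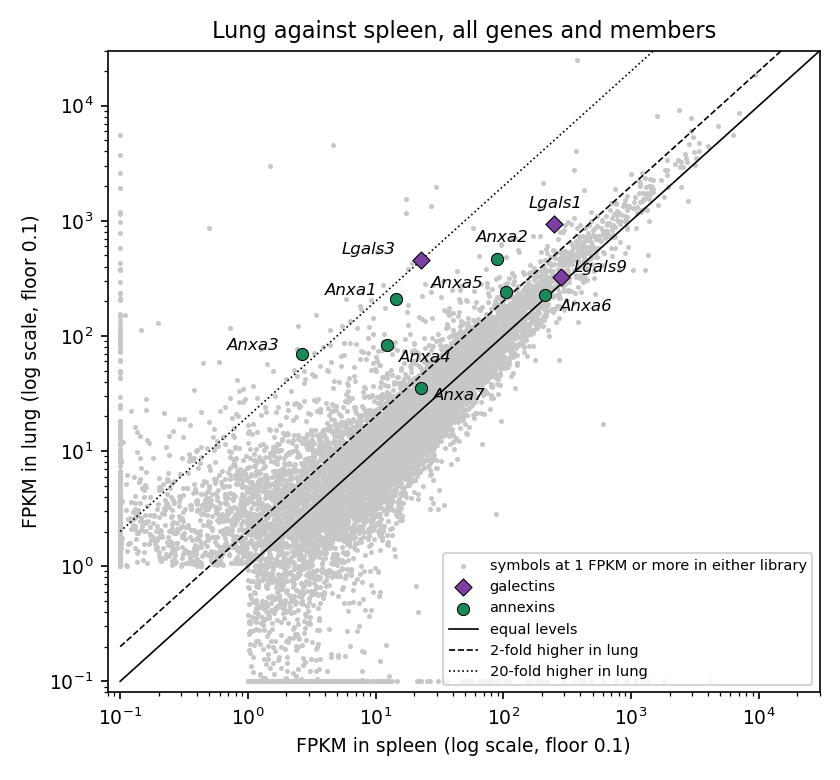
Lung FPKM against spleen FPKM for the 12094 symbols with at least 1 FPKM in either library (grey, values under 0.1 drawn at 0.1), with the 3 galectins as diamonds and the 7 annexins as circles, both axes logarithmic. Solid, dashed and dotted lines mark equal levels and 2-fold and 20-fold higher levels in lung. Lgals9 and Anxa6 lie near the line of equal levels, and Anxa3 and Lgals3 lie on or above the 20-fold line.

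The order of the members within each library does not depend on how the libraries were scaled against each other. In spleen, Lgals9 (285 FPKM) was highest, followed by Lgals1 (248), Anxa6 (214), Anxa5 (105) and Anxa2 (89.4). Lgals3 and Anxa7 came next at 22.6 and 22.5 FPKM, ahead of Anxa1 (14.5), Anxa4 (12.2) and Anxa3 (2.64). The Poisson intervals of Lgals3 (19.9 to 25.4 FPKM) and Anxa7 (20.8 to 24.4 FPKM) overlapped, as did those of Anxa1 (12.6 to 16.5) and Anxa4 (10.7 to 13.9). In lung, Lgals1 (929 FPKM) was highest, followed by Anxa2 (469) and Lgals3 (453), whose intervals overlapped (458 to 481 and 442 to 465 FPKM). Lgals9 (328), Anxa5 (241), Anxa6 (228) and Anxa1 (210) followed, and Anxa4 (82.9), Anxa3 (69.3) and Anxa7 (35.5) were lowest. Lgals1 stood at rank 135 of all listed genes by level in lung and at rank 378 in spleen. The rank of Lgals3 was 299 in lung and 4065 in spleen, and that of Anxa1 was 596 in lung and 5405 in spleen.

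The makeup of both families differed between the libraries. Of the summed FPKM of the 3 galectins, Lgals9 held 51.3% in spleen and 19.2% in lung, whereas Lgals3 held 4.07% and 26.5%. Lgals1 held 44.6% in spleen and 54.3% in lung. The ratio of Lgals9 to Lgals3 levels was 12.6 in spleen and 0.723 in lung, so that Lgals3 exceeded Lgals9 in the lung library only. Of the summed FPKM of the 7 annexins, Anxa6 held 46.5% in spleen and 17.1% in lung, and Anxa2 held 19.5% and 35.1%. Anxa1 held 3.15% in spleen and 15.7% in lung, and Anxa3 held 0.574% and 5.19%. Anxa5 and Anxa7 held smaller shares in lung (18.1% and 2.66%) than in spleen (22.8% and 4.90%), although their FPKM were higher there. The leading annexin was thus Anxa6 in spleen and Anxa2 in lung. The galectin sum was 555 FPKM in spleen and 1710 in lung, 3.08-fold higher, and the annexin sum was 460 and 1336 FPKM, 2.91-fold higher.

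**Figure D3:**
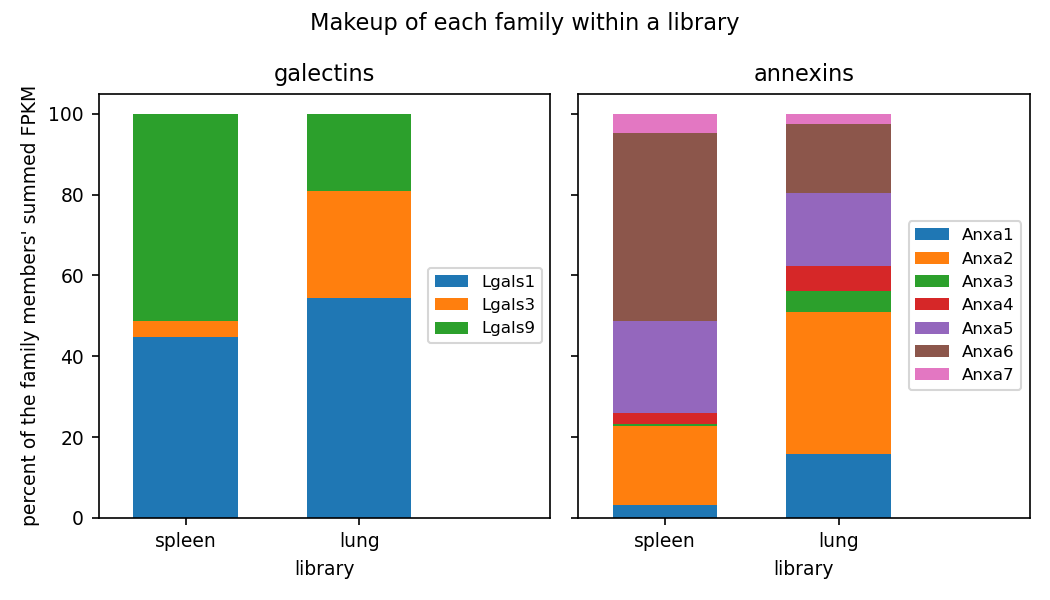
Share of each gene in the summed FPKM of its family, in percent, for the 3 galectins and the 7 annexins, with 1 bar per library. Lgals9 and Anxa6 take the largest parts in spleen (51.3% and 46.5%), and Lgals1 and Anxa2 in lung (54.3% and 35.1%).

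All 10 members are protein-coding genes, and they lie on 8 chromosomes of GRCm38 (mm10), with Lgals3 and Anxa7 on chromosome 14 and Lgals9 and Anxa6 on chromosome 11. Lgals3 extends from 47367751 to 47386160 on the plus strand of chromosome 14, Anxa1 from 20373428 to 20390944 on the minus strand of chromosome 19, and Anxa3 from 96793339 to 96845966 on the plus strand of chromosome 5. Lgals1 lies on chromosome 15 from 78926725 to 78930465 on the plus strand, and Anxa2 on chromosome 9 from 69453620 to 69491795 on the plus strand. In the GENCODE annotation, exons of Anxa2 and Anxa4 overlap those of a non-member gene on the opposite strand (Gm16144 and Gm44036), and exons of Anxa3 overlap Gm42603 on the same strand. No strand-specific counting is stated, so reads of these overlaps cannot be told apart.

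Promoter sequences are shown for Lgals3 and Anxa2, the 2 members with the highest folds whose window has a single RefSeq start and reaches outside annotated exons, and for Lgals9, with a level close to equal in both tissues. They come from RefSeq windows on GRCm38.p6 of 250 bases before to 50 bases after the start, which were found for 7 of the 10 members, and are written from 5′ to 3′ on the strand of the gene, ending at the first annotated exon. The stretch of Lgals3 lies inside the annotated span of the gene, before its RefSeq start. Capitals mark AP-1 (TGANTCA) and GC box (GGGCGG) matches on either strand, which fall within the bases shown of Anxa2 and of neither other gene. Lgals3 is shown for chr14:47373610-47373812 (plus strand), Anxa2 for chr9:69453433-69453619 (plus strand) and Lgals9 for chr11:78984947-78985174 (minus strand).
Lgals3: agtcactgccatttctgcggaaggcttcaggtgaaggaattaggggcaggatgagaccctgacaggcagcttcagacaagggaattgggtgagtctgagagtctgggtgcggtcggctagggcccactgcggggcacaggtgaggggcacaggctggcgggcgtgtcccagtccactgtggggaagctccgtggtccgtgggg
Anxa2: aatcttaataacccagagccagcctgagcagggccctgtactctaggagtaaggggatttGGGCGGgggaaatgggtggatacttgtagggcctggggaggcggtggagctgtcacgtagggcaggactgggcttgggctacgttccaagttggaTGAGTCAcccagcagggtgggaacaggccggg
Lgals9: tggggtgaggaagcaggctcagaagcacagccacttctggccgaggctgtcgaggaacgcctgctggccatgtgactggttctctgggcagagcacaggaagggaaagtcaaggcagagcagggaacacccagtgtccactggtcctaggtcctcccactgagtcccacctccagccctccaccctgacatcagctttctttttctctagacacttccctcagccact
In the whole 300-base window of Anxa2, TGANTCA was matched once, and it was matched in 7.81% of 32851 promoter windows. No other member's window matched it. GGGCGG was matched 3 times in the window of Anxa2 (1 of them in the bases shown), 2 times in that of Lgals3 (beyond the bases shown) and not in that of Lgals9, against 35.7% of windows with a match. TATAAA was matched in the windows of Anxa1 and Anxa2, against 13.6% of windows, and the STAT motif TTCNNNGAA in no member's window, against 8.30%. TGACG, the core of the cyclic AMP response element, and TGTGGT, a Runx motif, were matched in 20.8% and 16.8% of windows. Among members, TGACG was matched once in 1 of the windows of Anxa4 and of Anxa7, and TGTGGT once in that of Lgals9. A match describes the letters only, and no binding was measured.

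The genes that work with annexins were described from lists of partners. All 4 genes of the S100 list, whose small calcium-binding products pair with annexins, were over 2-fold higher in lung, against 17.8% of all symbols and 11.6% of those that reached 10 FPKM. S100a10, the partner of Anxa2, measured 752 FPKM in spleen and 1885 in lung. S100a11, a partner of Anxa1 and Anxa2, measured 425 FPKM in spleen and 1855 in lung. S100a6 measured 95.2 FPKM in spleen and 614 in lung, and S100a4 at 64.3 and 490. S100a10 exceeded Anxa2 in both libraries, with a ratio of levels of 8.41 in spleen and 4.02 in lung, and S100a11 exceeded Anxa1 29.4 times in spleen and 8.85 times in lung. The ratio of S100a11 to Anxa2 was 4.76 in spleen and 3.95 in lung. The ratio of S100a6 to Anxa2 was 1.06 in spleen and 1.31 in lung. S100a10 and S100a11 thus exceeded these annexins by less in the lung library, whereas S100a6 exceeded Anxa2 by more.

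Of the 6 formyl peptide receptor genes listed, Fpr1 and Fpr2 were measured above 0. Fpr2, which encodes the receptor through which annexin A1 acts, measured 0.709 FPKM in spleen and 9.996 in lung, about 6.80 and 109 reads. Fpr1 measured 5.36 FPKM in spleen and 13.1 in lung. Fpr3, Fpr-rs3, Fpr-rs4 and Fpr-rs6 were listed at 0 in both libraries. Fpr1 and Fpr2 are genes of neutrophils and monocytes. Of 7 neutrophil markers, 4 were over 2-fold higher in lung, against 17.8% of all symbols, and 1 was over 2-fold lower, against 15.5%. S100a8 measured 276 FPKM in spleen and 804 in lung, and Csf3r 4.06 and 26.4. Cxcr2 (4.87 and 8.06 FPKM) and Retnlg (19.5 and 32.7) were less than 2-fold higher. Ltf was at 11.6 in spleen and listed at 0 in lung. The part of neutrophils and monocytes in the levels of Fpr1 and Fpr2 was not tested. Of the 5 genes of membrane repair at 1 FPKM or more, 1 was over 2-fold higher, against 17.8% of all symbols, and 0 were over 2-fold lower. The higher gene was Ahnak, which encodes a giant scaffold bound by annexin A2 and S100a10, at 10.9 FPKM in spleen and 39.9 in lung. Capn1 was lower in lung, at 15.7 FPKM in spleen and 8.97 in lung. Capn2, a calpain that cleaves repair proteins, was at 52.4 and 55.8 FPKM, and Dysf, the gene of dysferlin, was near 0 at 0.197 and 0.227.

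The counter-receptors of galectins had a median log2 ratio of 0.26. Of 10 genes, 2 were over 2-fold higher in lung, against 17.8% of all symbols, and 1 was over 2-fold lower, against 15.5%. Havcr2, which encodes Tim-3, a receptor of galectin-9, measured 1.69 FPKM in spleen and 7.67 in lung. Cd44, the hyaluronan receptor, which also binds galectin-9, measured 35.0 FPKM in spleen and 81.1 in lung. Lag3, whose product can bind galectin-3, was lower in lung, at 4.62 FPKM in spleen and 1.04 in lung. The glycoproteins to which galectin-1 binds on T cells had like levels in both tissues. Ptprc, which encodes CD45, measured 427 FPKM in spleen and 334 in lung, Spn, which encodes CD43, at 43.9 and 54.8, and Cd7 at 41.9 and 43.3. Among 10 genes of the enzymes that build the glycans to which galectins bind, Gcnt1 alone was over 2-fold higher, against 17.8% of all symbols. It measured 1.65 FPKM in spleen and 6.54 in lung. Gcnt1 starts core 2 O-glycans, which carry sites for galectin-1. Mgat5, which makes the most branched N-glycans, measured 10.5 FPKM in spleen and 16.8 in lung, and St6gal1, whose sialic acid blocks binding of galectin-1, was at 33.4 and 27.5.

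**Figure D4:**
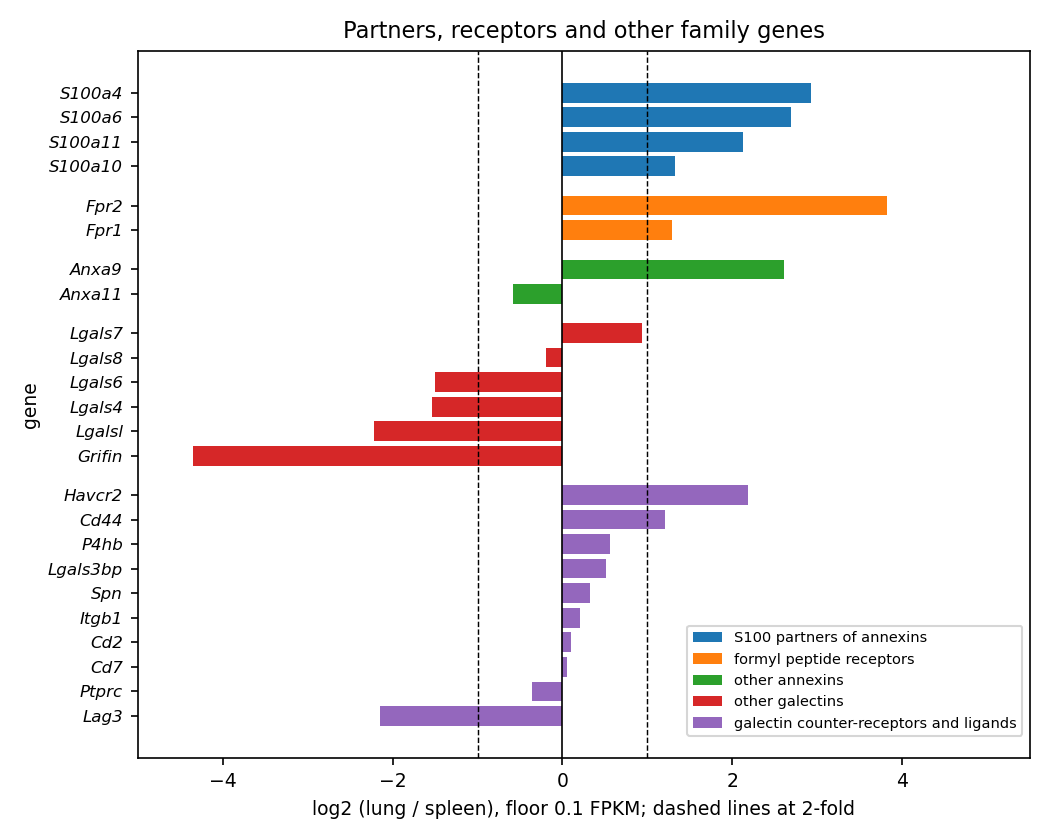
Log2 ratio of lung to spleen FPKM, with values under 0.1 set to 0.1, for genes reaching 1 FPKM in at least 1 library among S100 partners, formyl peptide receptors, other annexins, other galectins and galectin counter-receptors. Dashed lines mark 2-fold, and the bar of Grifin, listed at 0 in lung, depends on the floor. The 4 S100 genes all lie beyond the upper line.

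Not all genes of the families were higher in lung. Of 6 other galectin genes that reached 1 FPKM, none was over 2-fold higher and 4 were over 2-fold lower, against 17.8% and 15.5% of all symbols. Lgals8, the most abundant of them, measured 37.8 FPKM in spleen and 33.1 in lung. Lgals4, a galectin of digestive epithelium, measured 11.2 FPKM in spleen and 3.86 in lung, and its near-identical neighbour Lgals6 at 1.75 and 0.616, so that reads may be split between them. Lgalsl measured 2.53 FPKM in spleen and 0.545 in lung, and Grifin at 2.04 in spleen, about 8.56 reads, and at 0 in lung. Of the other annexins, Anxa9 measured 1.47 FPKM in spleen and 8.94 in lung, a log2 ratio of 2.61, and Anxa11 at 13.8 and 9.25. Anxa10 and Anxa13 were listed at 0 in both libraries. Over all 39 genes of the 7 partner and family lists at 1 FPKM or more, 11 were over 2-fold higher and 5 over 2-fold lower, with a median log2 ratio of 0.32, against 17.8% and 15.5% of all symbols and a median of 0.03. After rescaling to TPM the counts were 8 higher and 8 lower, and the median over all symbols was -0.40. The shares of all symbols given here are for the values as deposited and not for TPM.

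Several members are known from macrophages and epithelium as well as from T cells, so markers of those cells are given beside them. Of 14 macrophage genes listed, 11 were over 2-fold higher in lung, against 17.8% of all symbols, and none was at 0 in either library. Their summed level was 784 FPKM in spleen and 32267 in lung, 41.1-fold higher, with Lyz2, Spp1 (4.62 and 4560 FPKM) and Chil3 (17.4 and 1161) the highest in lung. Other genes of the list were close to equal, such as Csf1r (43.8 FPKM in spleen and 50.1 in lung) and Mrc1 (7.64 and 9.41). The sum of 11 lung epithelial genes was 13.3 FPKM in spleen and 3159 in lung, of which Scgb1a1 of club cells held 3021. Of the other epithelial genes, Sftpc, listed at 0 in spleen, was at 94.8 FPKM in lung, and Epcam was lower there (8.75 and 1.79). The 8 fibroblast genes summed to 0.290 FPKM in spleen, with 5 of them at 0, and 163 in lung, of which Mgp held 116. Pdgfrb was listed at 0 in both libraries. Of the 8 endothelial genes, 4 reached 1 FPKM, and 3 of them were over 2-fold higher in lung, against 17.8% of all symbols. These were Cldn5 (0.160 and 6.54 FPKM), Vwf (0.425 and 2.03) and Esam (1.17 and 4.49). Pecam1, which leukocytes also express, was at 54.8 in spleen and 31.7 in lung. Emcn was listed at 0 in both libraries. The 7 neutrophil genes summed to 441 and 1214 FPKM. The 8 B cell genes summed to 267 FPKM in spleen and 134 in lung. The lung excess of Lgals3, 431 FPKM, was 1.75% of that of Lyz2, and the excess of Anxa2, 380 FPKM, was 1.55%. For Anxa1 (195 FPKM) and Anxa3 (66.7 FPKM) the figures were 0.794% and 0.271%, and for Lgals1 (681 FPKM) 2.77%. The part of macrophage, epithelial or other RNA in the levels of the members and of the partner genes above was not tested. The levels of Lgals1 and Lgals9 in spleen were 65.8% and 75.6% of that of Lyz2, and that of Anxa3 was 0.701%.

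The genes nearest to the 3 members over 10-fold higher were found by their distance on the plane of log2 FPKM in both libraries, among 9322 protein-coding symbols with at least 1 FPKM in each. Nearest to Lgals3 were Il1b (23.2 FPKM in spleen and 485 in lung), Fabp5 (22.5 and 415) and Ctla2a (19.2 and 426). Nearest to Anxa1 were Crem (14.1 and 197), Fcgr3 (18.03 and 185) and Plin2 (11.9 and 176). Nearest to Anxa3 were G0s2 (2.43 and 76.8), Cdkn1a (3.29 and 70.7) and C5ar1 (2.76 and 49.6). Among them are genes known from myeloid cells, such as Il1b, Fcgr3 and C5ar1, and Ctla2a, which is known from T cells. Crem, Fabp5, Plin2, G0s2 and Cdkn1a were not assigned to a cell type, so these names give no balance between cell types. With 2 libraries, likeness means no more than like levels in each.

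How the libraries were scaled moved all members together. Rescaling to TPM lowered every log2 ratio by 0.43, and equal upper quartiles lowered them by 0.18. Setting the median ratio to 1 lowered them by 0.02, and equal sums of the T cell list raised them by 0.07. The order of the members by ratio is the same under each of these. Under TPM, 6 members were over 2-fold higher, with Anxa5 at a log2 ratio of 0.77, and 0 were over 20-fold higher, with Anxa3 at 4.28 and Lgals3 at 3.90. The median over all symbols was -0.40 on that scale. The shares of all symbols given above are for the values as deposited, so they do not apply to these TPM counts.

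**Figure D5:**
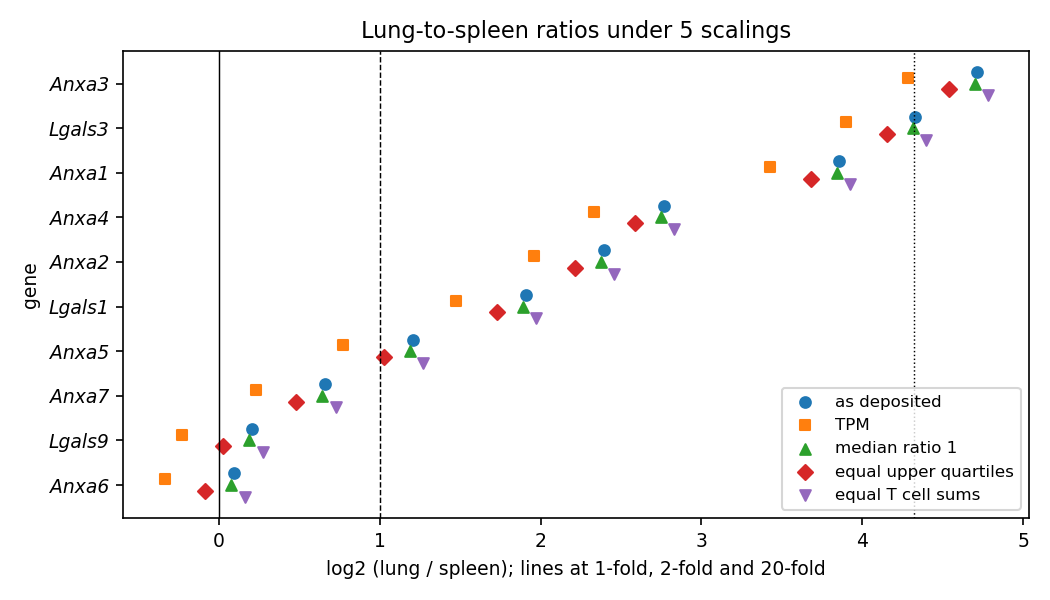
Log2 ratio of lung to spleen for each member as deposited and under 4 other scalings of the libraries, with lines at equal levels, 2-fold and 20-fold. Each scaling moves all members by the same amount, and Lgals9 and Anxa6 are the members that cross the line of equal levels (Lgals9 at -0.23 and Anxa6 at -0.34 after rescaling to TPM).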

How the data were processed

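Total RNA of the sorted cells was converted to full-length cDNA with SMART-Seq HT, a kit for low input that amplifies by PCR, and read from 1 end over 75 bases. Mapping by the authors was to mm10 with TopHat2 2.1.1, Bowtie2 2.2.8 and SAMtools 0.1.18, and the authors deposited FPKM from Cuffdiff 2.2.1. Annotation and scaling between libraries are not given in the sources used here.

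Values under 0.1 FPKM were set to 0.1 before ratios were taken. The background was all symbols that reached 1 FPKM in at least 1 library. Reads behind a value were estimated from lengths of GENCODE M21 transcripts, known for 97.2% of symbols, with fragments of 200 ± 80 (mean and SD, 73 or longer), and from the most frequent value of 1 read, which at 1 kb of effective length was 0.0964 FPKM for spleen and 0.0849 FPKM for lung. With this unit, 72.6% and 74.6% of genes with 1 to 10 reads came within 0.1 of a whole number. PCR copies are counted separately, so intervals cover counting error only. With 1 library per tissue no test was run. Named genes were the members, the genes of the partner, family and marker lists, and the 3 protein-coding symbols nearest to each member over 10-fold. The members and lists were chosen with earlier results of these data known. Other floors, pseudocounts, scalings, folds and filters were tried. The steps were tested on simulated data. Computation used scipy 1.17.1, pandas 2.3.3 and numpy 2.4.6 under Python 3.11.15, and plots used matplotlib 3.10.9.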

Additional observations from a re-analysis of the deposited data

How the results depend on the processing

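All 10 members were computed under 9 other settings. Lgals1, Lgals3, Anxa1, Anxa2, Anxa3, Anxa4, Anxa5 and Anxa7 kept their direction in each. After rescaling to TPM the log2 ratio of Lgals9 was -0.23 and that of Anxa6 -0.34, and with equal upper quartiles that of Anxa6 was -0.084. The number of members over 20-fold higher was 0 after rescaling to TPM, with a pseudocount of 1 FPKM and at a threshold of 50-fold, and it was 1 with a median ratio of 1 and with equal upper quartiles. The median log2 ratio of the galectins was 1.47 and that of the annexins 1.96 after rescaling to TPM, and 1.73 and 2.21 with equal upper quartiles. The number over 2-fold higher lay between 6 and 8 under all settings and thresholds tried. Of the partner and family genes, 8 were over 2-fold higher and 8 over 2-fold lower after rescaling to TPM, in place of 11 and 5. The median over all symbols was -0.40 on that scale, in place of 0.03, and the shares of all symbols are for the values as deposited. When shares were taken of all listed genes of a family, Lgals1 and Lgals9 held 40.5% and 46.5% in spleen, Lgals1 and Lgals3 held 53.0% and 25.9% in lung, and Anxa6 held 45.0% in spleen. Crediting each gene with at least 3 reads per library was an alternative chosen after seeing the data. It could not change a member ratio, since each member rested on about 37.9 reads or more. The floors of 0.01 and 1 FPKM could not either, since the lowest member level was 2.64 FPKM (Anxa3 in spleen). With 1 library per tissue, the variation between mice is not known.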
